A study of Mus musculus with 6 samples.

Results

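The guanylate-binding proteins were examined in mouse macrophages cultured from bone marrow precursors. The 9 genes Gbp2 to Gbp10 were picked by their symbols from the 55023 genes listed in the count table, and all 9 passed the filter on low counts that left 18812 genes for testing. Another 3 listed genes bear a Gbp symbol, namely Gbp2b, Gbp11 and the pseudogene Gbp2-ps, and they are described beside the members.

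The cells were kept for 24 h in 1 of 3 treatments, with 2 RNA sequencing libraries each. In the first group they received LCL161 together with LTα1β2, in the second LTα1β2 without the antagonist, and in the third the vehicle. LTα1β2 is the membrane-type lymphotoxin trimer, the ligand of the lymphotoxin beta receptor. LCL161, a small molecule, antagonises the ubiquitin ligases cIAP1 and cIAP2. No group with LCL161 and without LTα1β2 was analysed here, so the antagonist was compared on top of LTα1β2. The sources used here do not give strain, age, sex or number of donor mice, or whether replicate libraries came from separate cultures. The p-values below therefore measure only library-to-library spread, and that spread may be technical.

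Guanylate-binding proteins are large GTPases that cells make in response to interferons, in part through the transcription factor IRF1. They coat vacuoles that hold parasites or bacteria, and bacteria that have escaped into the cytosol, and they promote inflammasome activation in macrophages. In the mouse the genes lie in a cluster on chromosome 3 and another on chromosome 5, and a few of the proteins carry a prenyl anchor for membranes.

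Total counts were 14718368 to 19049613 per library. At these totals 3 reads, taken here as the floor of detection, correspond to 0.139 to 0.23 CPM, which are counts scaled to a common library total, with library sizes adjusted by trimmed mean of M-values (TMM). Macrophage markers such as Lyz2 and Csf1r summed to 32676 to 34495 CPM with LCL161 plus LTα1β2, 32782 to 33488 CPM with LTα1β2 and 27869 to 34386 CPM with vehicle. The 10 stromal markers listed summed to 679 to 741 CPM with LCL161 plus LTα1β2, 2452 to 3497 CPM with LTα1β2 and 6053 to 8926 CPM with vehicle. The 6 neutrophil markers summed to 70.7 to 96.7 CPM, 322 to 402 CPM and 257 to 423 CPM in the same order of groups. The 10 T and NK cell markers summed to 25.9 to 26 CPM, 2.89 to 4.28 CPM and 2.41 to 2.97 CPM, and the signalling chain gene Cd247 made up 19.9 ± 0.269 CPM (SD, n = 2) of the first of these sums. B cell, dendritic cell and endothelial markers summed to at most 19.7 CPM in any library, and no listed marker was at 0 in both libraries of a group. Several of these sums moved with the treatments, and their part in the results was not tested. In such bulk samples fewer cells of a type and less RNA per cell cannot be told apart.

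Promoter sequence was at hand for 4 of the 9 members, all on chromosome 3. It was taken from RefSeq (GRCm38.p6), which holds 1 start each for Gbp2, Gbp5 and Gbp7 and a pair of starts for Gbp3. Gbp4, Gbp6, Gbp8, Gbp9 and Gbp10 were not in the table. The sequences are shown because all 4 genes rose with LTα1β2 and Gbp5 alone of them passed the test for the addition of LCL161. Capitals mark the core of the interferon-stimulated response element (ISRE), searched on both strands as GAAANNGAAA and in each case found on the reverse strand. Each run is 180 bases long, 5′ to 3′, and ends at the base before the start.
Gbp2 (chr3:142620483-142620662, + strand): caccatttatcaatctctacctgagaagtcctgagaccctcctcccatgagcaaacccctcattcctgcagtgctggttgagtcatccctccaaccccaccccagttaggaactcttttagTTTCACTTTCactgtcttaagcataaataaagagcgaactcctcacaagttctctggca
Gbp5 (chr3:142496754-142496933, + strand): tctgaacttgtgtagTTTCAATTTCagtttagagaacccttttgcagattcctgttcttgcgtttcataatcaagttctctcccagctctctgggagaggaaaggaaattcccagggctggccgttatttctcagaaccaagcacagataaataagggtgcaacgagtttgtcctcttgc
Gbp3 (chr3:142559864-142560043, + strand): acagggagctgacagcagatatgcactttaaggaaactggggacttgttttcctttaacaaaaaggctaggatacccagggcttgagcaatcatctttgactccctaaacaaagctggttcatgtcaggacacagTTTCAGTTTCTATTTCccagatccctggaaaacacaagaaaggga
Gbp7 (chr3:142530156-142530335, + strand): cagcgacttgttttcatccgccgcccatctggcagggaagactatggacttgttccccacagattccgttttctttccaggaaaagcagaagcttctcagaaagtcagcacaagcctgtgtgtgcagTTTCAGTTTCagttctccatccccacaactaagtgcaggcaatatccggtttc
Counted from the start, the match spans -59 to -50 in Gbp2, -165 to -156 in Gbp5 and -53 to -44 in Gbp7, and the first start of Gbp3 has overlapping matches at -45 to -36 and -39 to -30. The other Gbp3 start has no match in the 250 bases before it. Of 32841 promoters in the table, 2.98% hold this core within 250 bases before the start. The palindromic core of the gamma-activated site, TTCNNNGAA, occurs in Gbp5 at -245 to -237 and -52 to -44 and in Gbp7 at -106 to -98 and -87 to -79, and 7.02% of the promoters hold it. A match to the kappaB consensus occurs in Gbp5 at -77 to -68 and in no other member entry, and 7.25% of the promoters hold one. GENCODE M21 has transcripts of Gbp2, Gbp3 and Gbp5 that begin farther upstream, so these positions hold for the RefSeq starts only. None of these matches overlaps a match to another of the motifs. A match of letters is a description of sequence and not a bound site.

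LTα1β2 raised every member. Against vehicle, 9 of 9 members were higher and 0 were lower (edgeR's quasi-likelihood test over all 18812 genes, Benjamini-Hochberg adjusted p under 0.05), where 12.8% of all tested genes were called higher and 10.6% lower. The median log2 fold change of the members was 7.57, beside -0.04 over all tested genes. Ordered by increase, the members took places from 2 (Gbp4) to 52 (Gbp7) among the 18812 genes. Together they held 79680 and 101132 reads in the LTα1β2 libraries, against 1002 and 450 reads in the vehicle libraries. This was 0.499% (exact 95% interval 0.496 to 0.503) and 0.531% (0.528 to 0.534) of all counts with LTα1β2, against 0.00531% (0.00499 to 0.00565) and 0.00266% (0.00242 to 0.00292) with vehicle. All such intervals cover counting error only, as the reads carry no stated molecular identifiers.

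**Figure D1:**
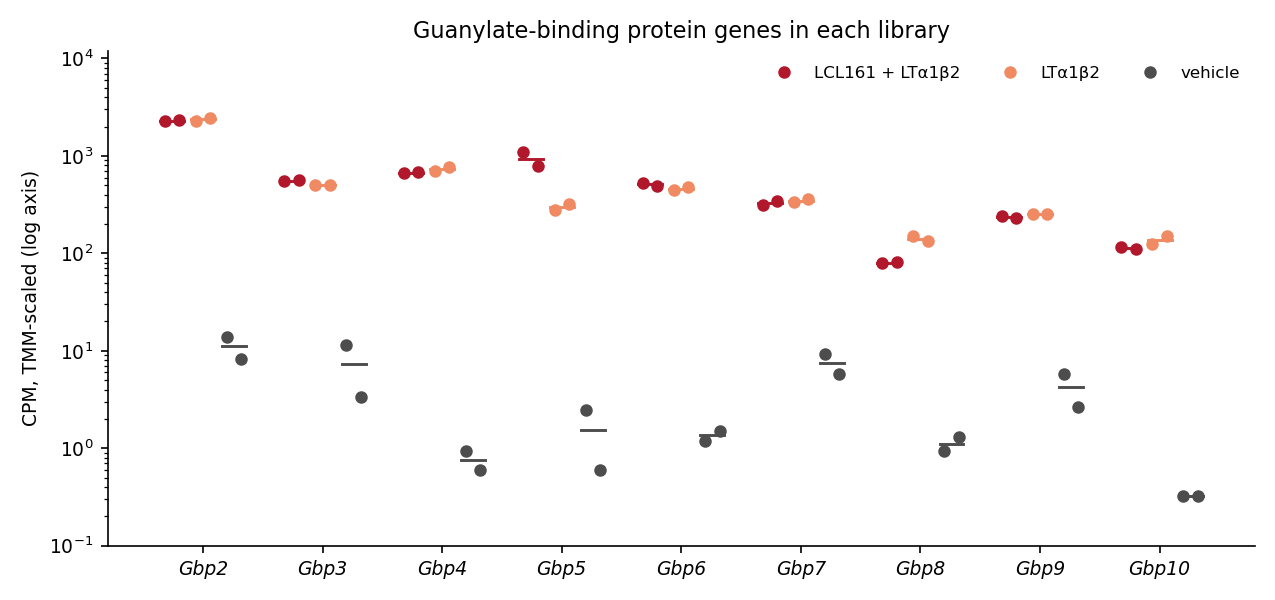
CPM of the 9 members in each of the 6 libraries on a log axis, with groups from left to right LCL161 plus LTα1β2, LTα1β2 and vehicle. Points are libraries and short lines are group means (n = 2); every treated library lies above every vehicle library for each member, and Gbp5 and Gbp8 show the widest gaps between the treated groups.

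Gbp2 and Gbp5 encode the members that carry a prenyl anchor. Gbp2, which coats Toxoplasma vacuoles and takes part in the release of bacterial DNA to the AIM2 inflammasome, was the most abundant member in every library. It had 2292 and 2449 CPM with LTα1β2, against 14 and 8.32 CPM with vehicle, so the groups were far apart. The log2 fold change was 7.72 (SE 0.26, edgeR adjusted p = 1.99e-06). Gbp5, a promoter of NLRP3 inflammasome assembly, had 279 and 321 CPM with LTα1β2, against 2.45 and 0.595 CPM with vehicle. The groups did not overlap although the vehicle libraries were unlike each other, and the log2 fold change was 7.57 (SE 0.44, edgeR adjusted p = 2.84e-05).

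The other chromosome 3 members, Gbp3 and Gbp7, had the highest vehicle levels per length after Gbp2. Gbp3 had 505 and 503 CPM with LTα1β2, against 11.4 and 3.35 CPM with vehicle, a log2 fold change of 6.07 (SE 0.46, edgeR adjusted p = 0.000115). Gbp7, which has been tied to oxidase and autophagy functions on bacterial vacuoles, had 334 and 357 CPM with LTα1β2, against 9.35 and 5.73 CPM with vehicle. Its log2 fold change of 5.51 (SE 0.22, edgeR adjusted p = 4.7e-06) was the smallest of the 9 members, and here too no treated library came near a vehicle library.

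Gbp4, Gbp6, Gbp8, Gbp9 and Gbp10 form the chromosome 5 group, and Gbp4 rose the most. It had 700 and 766 CPM with LTα1β2, against 0.926 and 0.595 CPM with vehicle, or 20 and 11 reads. The log2 fold change was 9.88 (SE 0.19, edgeR adjusted p = 2e-07), and the ratio of counts was 952 with an exact 95% counting interval of 670 to 1401. Gbp4 has been described as a brake on the interferon regulatory factor IRF7. Gbp6, one of the members that protect against Listeria, had 448 and 477 CPM with LTα1β2, against 1.2 and 1.51 CPM with vehicle. Gbp10, also tied to defence against Listeria, had 125 and 150 CPM with LTα1β2, against 0.324 and 0.324 CPM with vehicle, or 7 and 6 reads. Gbp10 had the lowest vehicle level of the members, close to the floor of 3 reads.

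The log2 fold changes were 8.41 for Gbp6 (SE 0.16, edgeR adjusted p = 2e-07) and 8.69 for Gbp10 (SE 0.19, edgeR adjusted p = 3.18e-07). For Gbp10 the counting interval of the ratio, 249 to 802 around 427, is wider than this SE conveys, because only 13 vehicle reads stand behind it. Gbp8 had 150 and 133 CPM with LTα1β2, against 0.926 and 1.3 CPM with vehicle, and a log2 fold change of 7.00 (SE 0.17, edgeR adjusted p = 3.84e-07). Gbp9, which also gathers at Toxoplasma vacuoles, had 252 and 252 CPM with LTα1β2, against 5.79 and 2.65 CPM with vehicle, and a log2 fold change of 5.88 (SE 0.29, edgeR adjusted p = 1.28e-05). Both genes were clear of their vehicle levels in both libraries.

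The vehicle libraries differed from each other for several members. Replicate 1 was above replicate 2 by 4.13-fold for Gbp5, 3.4-fold for Gbp3 and 2.18-fold for Gbp9, while Gbp10 was nearly equal and Gbp6 and Gbp8 were lower in replicate 1. In the treated groups the same ratio lay between 0.833 and 1.4 for all members. The antiviral GTPase gene Mx1 moved the same way, with 3.06 and 0.27 CPM in vehicle replicates 1 and 2. Without vehicle replicate 1 the LTα1β2 log2 fold change was 8.96 for Gbp5, 7.22 for Gbp3 and 6.56 for Gbp9, and without vehicle replicate 2 it was 6.93, 5.46 and 5.44 for the same genes. The size of these 3 changes therefore rests in part on which vehicle library is used, while the direction and the call held with either left out.

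Adding LCL161 to LTα1β2 left most members near their LTα1β2 level and moved 2 of them in opposite directions. Gbp5 was the 1 member higher and Gbp8 the 1 member lower, where 10.6% of all tested genes were called higher and 15.1% lower, so these counts are near the background. The median log2 fold change of the members was -0.09, beside 0.00 over all tested genes.

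Gbp5 had 1093 and 780 CPM with LCL161 plus LTα1β2, against 279 and 321 CPM with LTα1β2. Both LCL161 libraries lay above both LTα1β2 libraries, though the LCL161 libraries were also 1.4-fold apart. The change was 3.12-fold (log2 1.64, SE 0.31, edgeR adjusted p = 0.00744), and the interval of the ratio for counting error alone was 3.04 to 3.18. The call was lost in DESeq2 over all 6 libraries (log2 1.65, adjusted p = 0.0799), without LTα1β2 replicate 1 (log2 1.48, edgeR adjusted p = 0.0539) and without LTα1β2 replicate 2 (log2 1.71, edgeR adjusted p = 0.0547). It was kept in DESeq2 on the 4 libraries of these groups (log2 1.65, adjusted p = 6.01e-16), a fit without the vehicle libraries that was chosen after the data were seen. Why these fits differed was not tested.

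Gbp8 had 79 and 80.6 CPM with LCL161 plus LTα1β2, against 150 and 133 CPM with LTα1β2. The LCL161 libraries were nearly equal and both lay below both LTα1β2 libraries. The log2 fold change was -0.83 (SE 0.12, edgeR adjusted p = 0.0021), and the ratio of counts was 0.566 with a counting interval of 0.538 to 0.596. Gbp8 kept its call under all 14 alternatives tried, with adjusted p-values of 3.36e-10 to 0.0135. With LCL161 plus LTα1β2 it nonetheless stayed 72.1-fold above vehicle.

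**Figure D2:**
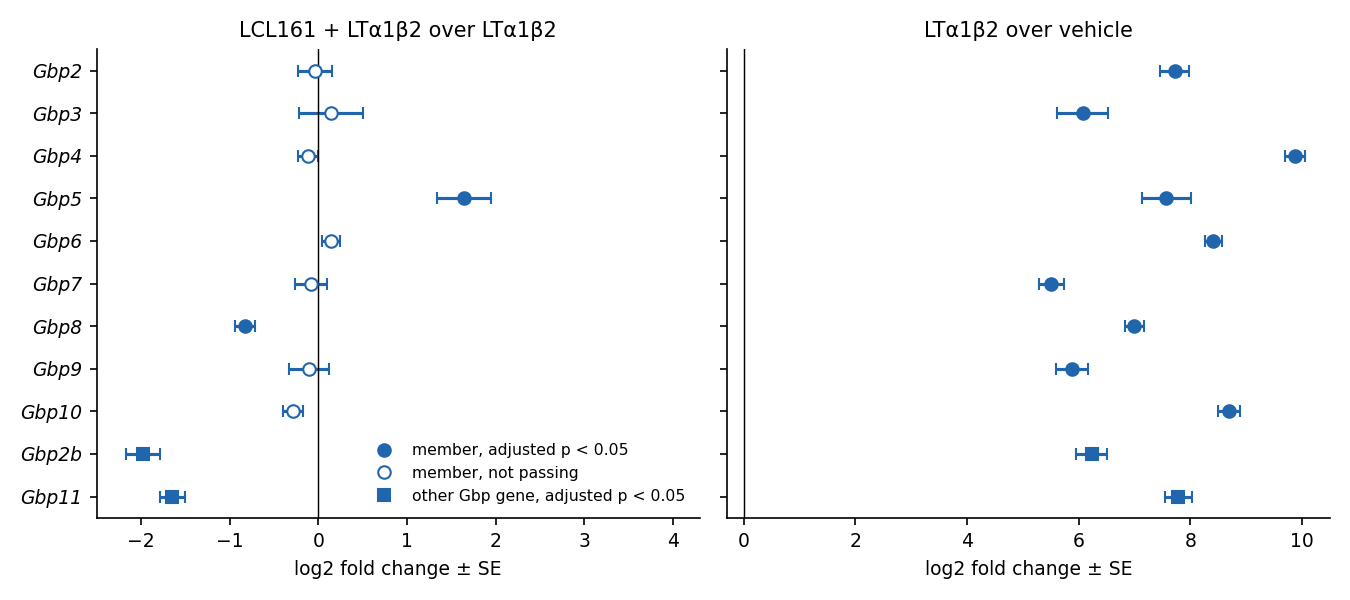
Log2 fold change with its SE for the 9 members (circles) and for Gbp2b and Gbp11 (squares), on the left for LCL161 plus LTα1β2 over LTα1β2 and on the right for LTα1β2 over vehicle. Filled symbols passed an adjusted p of 0.05 in edgeR; on the left Gbp5 stands at 1.64 and Gbp8 at -0.83 while the other 7 members lie between -0.28 and 0.14.

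The other 7 members did not pass the test. Gbp2 had 2273 and 2343 CPM with LCL161 plus LTα1β2, against 2292 and 2449 CPM with LTα1β2, and Gbp7 had 310 and 342 CPM, against 334 and 357 CPM, so that the libraries of the groups overlapped for both genes. For Gbp3, Gbp4, Gbp6, Gbp9 and Gbp10 the differences were small, with log2 fold changes of -0.28 to 0.14. The libraries of the groups did not overlap for these genes, but how often this held over all tested genes was not counted. Gbp10 came closest, with 115 and 111 CPM with LCL161 plus LTα1β2, against 125 and 150 CPM with LTα1β2 (log2 -0.28, SE 0.11, edgeR adjusted p = 0.0999). Among the 7, the SE ranged from 0.10 for Gbp6 to 0.36 for Gbp3. A missed threshold does not show that a gene stayed the same.

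Of the 3 genes with a Gbp symbol outside the 9 members, 2 passed the filter on low counts. Both were lower after the addition of LCL161, beside 15.1% of all tested genes. Gbp2b, which lies between Gbp3 and Gbp2 on chromosome 3 and encodes another prenylated member, had 4.52 and 6.2 CPM with LCL161 plus LTα1β2, 20.5 and 21.7 CPM with LTα1β2, and 0.324 and 0.216 CPM with vehicle. It fell by 1.98 on the log2 scale with LCL161 plus LTα1β2 relative to LTα1β2 (SE 0.19, edgeR adjusted p = 0.000371). Gbp11, annotated as a polymorphic pseudogene next to Gbp6, had 9.05 and 9.57 CPM with LCL161 plus LTα1β2, 29.9 and 28.5 CPM with LTα1β2, and 0.0926 and 0.162 CPM with vehicle. It fell by 1.65 on the log2 scale in the same comparison (SE 0.14, edgeR adjusted p = 0.000239). Neither gene's LCL161 libraries overlapped its LTα1β2 libraries. Both were higher with LTα1β2 over vehicle, beside 12.8% of all tested genes. The log2 fold change was 6.23 for Gbp2b (SE 0.27, edgeR adjusted p = 6.81e-06) and 7.79 for Gbp11 (SE 0.24, edgeR adjusted p = 1.19e-06). The vehicle reads are few: the ratio of counts was 77.2 for Gbp2b (counting interval 42.9 to 155) and 292 for Gbp11 (114 to 1075). Gbp2-ps had at most 1 read in a library and was not tested.

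**Figure D3:**
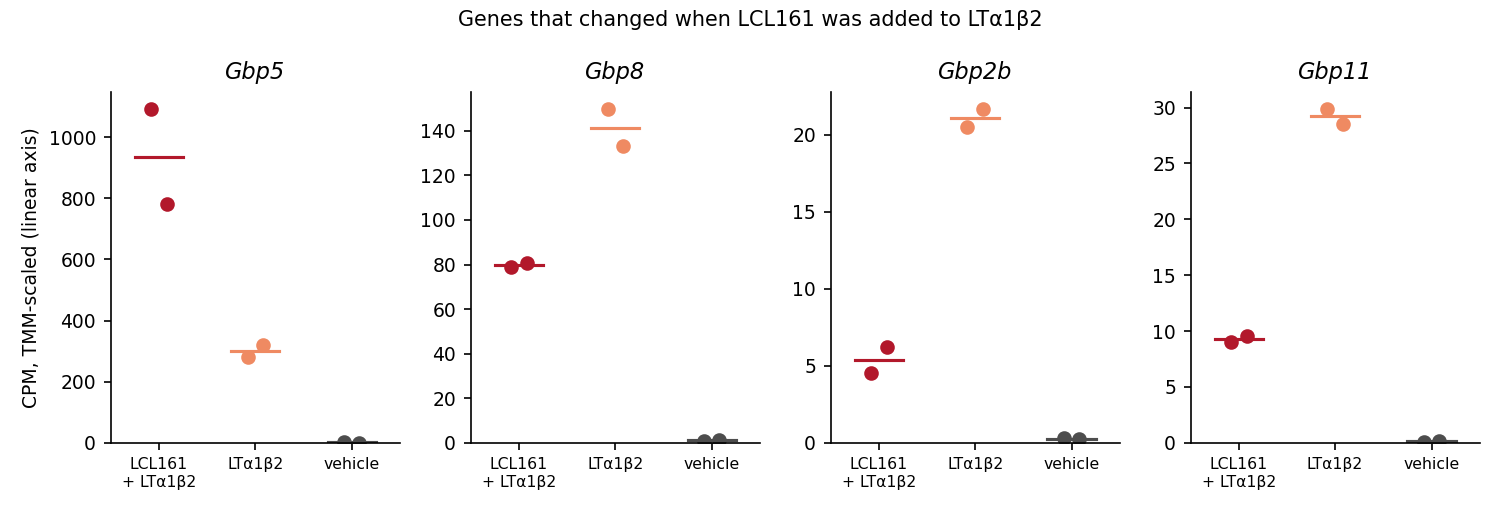
CPM on linear axes for Gbp5, Gbp8, Gbp2b and Gbp11 in LCL161 plus LTα1β2, LTα1β2 and vehicle libraries from left to right, with points for libraries and lines for group means (n = 2). Gbp5 is highest with LCL161 plus LTα1β2, whereas the other 3 genes are highest with LTα1β2.

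Relative to vehicle, LCL161 plus LTα1β2 raised all 9 members and lowered 0, where 18.4% of all tested genes were called higher and 21.1% lower. The median log2 fold change was 7.68, beside 0.05 over all tested genes. This comparison shares its LCL161 libraries and its vehicle libraries with the other comparisons and adds no independent samples. Log2 fold changes ran from 5.42 for Gbp7 (SE 0.22, edgeR adjusted p = 2.19e-06) to 9.76 for Gbp4 (SE 0.18, edgeR adjusted p = 9e-08). Gbp5 followed Gbp4 at 9.21 (SE 0.46, edgeR adjusted p = 5.43e-06), a value of 10.55 without vehicle replicate 1 and of 8.52 without vehicle replicate 2. For Gbp3 the log2 fold change was 6.22, with 7.32 and 5.56 when the same libraries were left out.

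Under scaling by total counts the median log2 fold change of all tested genes was -0.23 (-0.04 under TMM) for LTα1β2 over vehicle, -0.12 (0.00) for LCL161 plus LTα1β2 over LTα1β2, and -0.26 (0.05) for LCL161 plus LTα1β2 over vehicle. Calls of all genes then split into 1836 higher and 3729 lower, 1524 and 3924, and 2137 and 6561 in the same order of comparisons, where TMM gave 2410 and 1991, 1989 and 2843, and 3463 and 3968. Relative to those medians, Gbp5 stood at 1.64 and Gbp8 at -0.83 under either scaling for the addition of LCL161. Gbp10 passed as lower under total counts (log2 -0.40, edgeR adjusted p = 0.037), but relative to the median of all genes it stood at -0.29 under both scalings. No member changed direction between the scalings.

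The make-up of the family's reads shifted with both treatments. Gbp5 held 18.6% (exact 95% interval 18.4 to 18.9) and 13.9% (13.6 to 14.2) of member reads with LCL161 plus LTα1β2, against 5.49% (5.34 to 5.65) and 5.94% (5.8 to 6.09) with LTα1β2, and 5.29% (3.99 to 6.86) and 2.44% (1.23 to 4.33) with vehicle. Gbp2 held 40.3% ± 2.13 with LCL161 plus LTα1β2, 45.2% ± 0.153 with LTα1β2 and 32.3% ± 2.87 with vehicle (SD, n = 2 each). Shares of a common total depend on each other. In CPM, Gbp2 had a log2 fold change of -0.04 on addition of LCL161 and did not pass (edgeR adjusted p = 0.899). Gbp7 and Gbp3 took larger shares in vehicle cells, with 21.9% ± 2.39 and 19.1% ± 7.59 (SD, n = 2), than with LTα1β2, where they held 6.58% ± 0.0209 and 9.61% ± 0.441 (SD, n = 2). The whole family took 80382 and 73244 reads with LCL161 plus LTα1β2, or 0.546% (exact 95% interval 0.542 to 0.55) and 0.489% (0.485 to 0.492) of all counts, close to its share with LTα1β2.

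**Figure D4:**
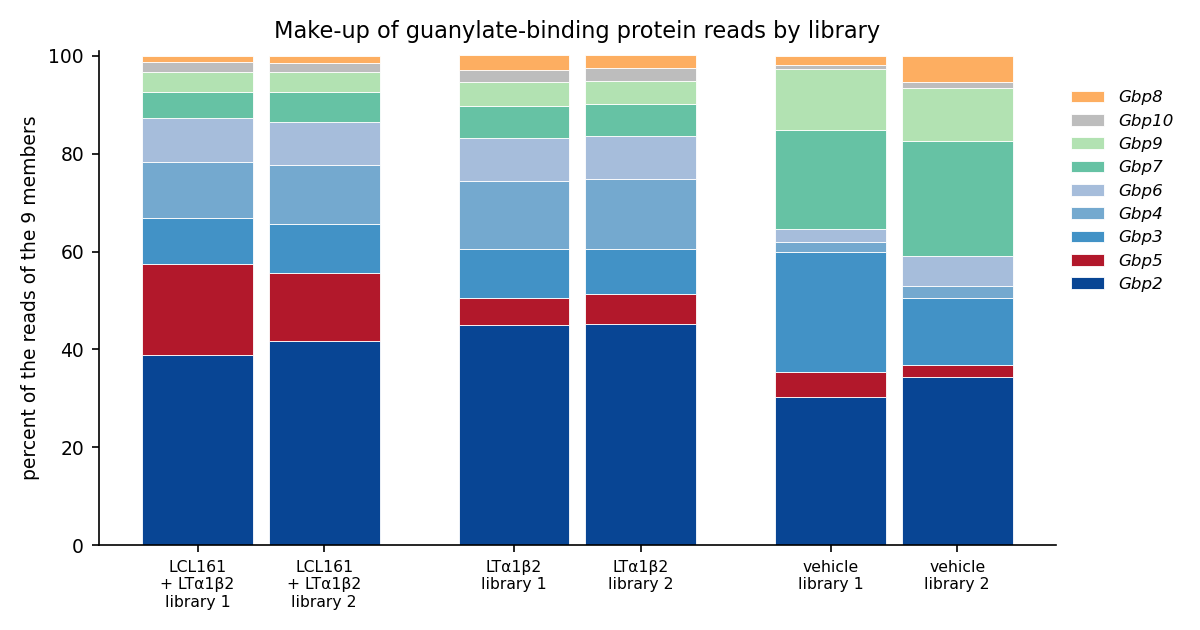
Percent of the summed reads of the 9 members that each member holds, as stacked bars for the 6 libraries, with LCL161 plus LTα1β2 left, LTα1β2 in the middle and vehicle right. The band of Gbp5 is widest in the LCL161 libraries (18.6% and 13.9%), and those of Gbp7, Gbp3 and Gbp9 are widest in the vehicle libraries.

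Levels were compared between members as CPM per kilobase of annotated exon. Gbp2 led with 917 ± 19.7 with LCL161 plus LTα1β2, 942 ± 44.1 with LTα1β2 and 4.44 ± 1.6 with vehicle (SD, n = 2 each). Gbp3 came next in all groups, at 171 ± 1.22, 154 ± 0.385 and 2.26 ± 1.74 CPM per kilobase in the same order (SD, n = 2 each). Gbp5 took place 3 with LCL161 plus LTα1β2, at 141 ± 33.4, and place 7 with LTα1β2, at 45.2 ± 4.47, where its libraries overlapped those of Gbp8 at 41.2 ± 3.42 (SD, n = 2 each). Gbp8 stood last with LCL161 plus LTα1β2, at 23.2 ± 0.333, just under Gbp10 at 29.1 ± 0.765 (SD, n = 2 each). With LCL161 plus LTα1β2 no neighbours in the order had overlapping libraries, and with LTα1β2 only Gbp5 and Gbp8 did. With vehicle most neighbours overlapped, and only Gbp9 above Gbp8 and Gbp6 above Gbp4 were separate. All places depend on the annotated exon lengths. Those of Gbp6 and Gbp10 also depend on how reads were divided with the gene model Gm43302, described next.

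Reads that could belong to more than 1 of these genes limit some values. Counts that were not whole numbers, which can arise when a read is divided between genes, stood in 6 of 6 libraries for Gbp4, Gbp6, Gbp8, Gbp9 and Gbp10, the chromosome 5 members. They stood in 4 libraries for Gbp2, Gbp3 and Gbp7 and in 2 for Gbp5. Over all genes 66.6% of the non-zero values were whole. In the GENCODE M21 annotation of GRCm38, 77.8% of the 75-base windows of Gbp10 transcripts and 67.3% of those of Gbp6 also occur in another gene, chiefly in Gm43302. This gene model runs across both on chromosome 5, shares 1792 exonic bases with Gbp10 and 1726 with Gbp6 on the same strand, and 99.4% of its own windows occur elsewhere. The share was 11.3% for Gbp7, 8.04% for Gbp8 and at most 3.61% for the other 5 members, with 0.578% for Gbp5.

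**Figure D5:**
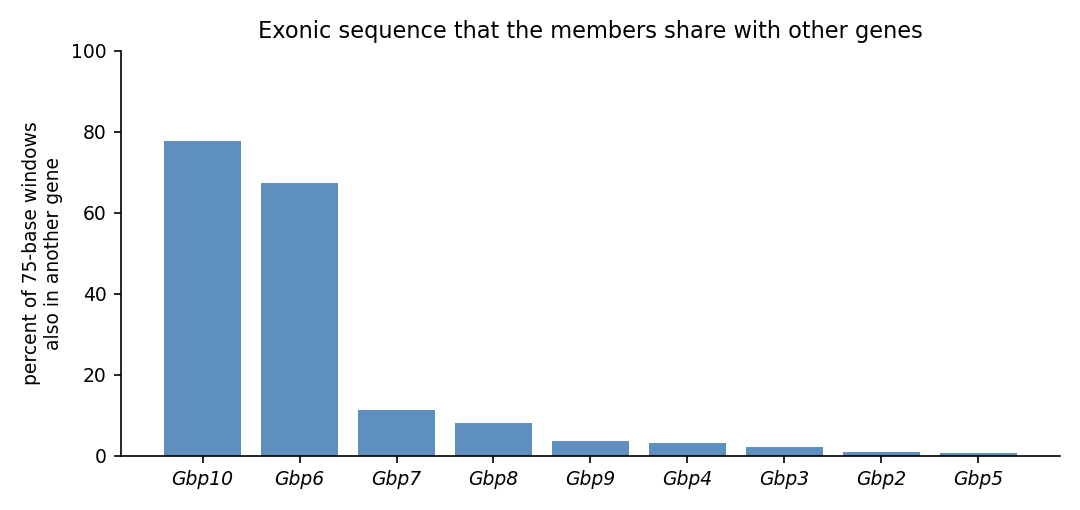
Percent of the 75-base windows of each member's annotated transcripts that also occur in another gene, as bars from 0. Gbp10 (77.8%) and Gbp6 (67.3%) stand far above the other 7 members, none of which exceeds 11.3%.

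Sums over genes that share most sequence depend less on how reads were divided between them. They still depend on it in part, since Gbp8 shares 126 windows with Gbp10, and Gbp4 shares 132 and Gbp6 111 with Gbp11. Gbp6, Gbp10 and Gm43302 together had 936 and 877 CPM with LCL161 plus LTα1β2, 833 and 912 CPM with LTα1β2, and 2.28 and 2.59 CPM with vehicle. The LCL161 and LTα1β2 libraries overlapped, with a log2 ratio of 0.06, while the log2 ratio of LTα1β2 over vehicle was 8.48. Gbp4, Gbp8 and Gbp9, whose exons overlap by up to 61 bases on the same strand, together had 989 and 984 CPM with LCL161 plus LTα1β2, 1102 and 1151 CPM with LTα1β2, and 7.64 and 4.49 CPM with vehicle. This sum is mostly Gbp4. By cluster, the 4 chromosome 3 members summed to 4229 and 4024 CPM with LCL161 plus LTα1β2, 3410 and 3630 CPM with LTα1β2, and 37.2 and 18 CPM with vehicle. The 5 chromosome 5 members summed to 1636 and 1585 CPM with LCL161 plus LTα1β2, 1675 and 1777 CPM with LTα1β2, and 9.17 and 6.31 CPM with vehicle. The chromosome 3 sums with LCL161 lay above those with LTα1β2 and the chromosome 5 sums below them, without a test. The chromosome 3 difference was carried by Gbp5: Gbp2, Gbp3 and Gbp7 without it summed to 3136 and 3245 CPM with LCL161 plus LTα1β2, against 3131 and 3309 CPM with LTα1β2, which overlap.

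The chromosome 3 members run in the order Gbp5, Gbp7, Gbp3 and Gbp2 on the plus strand, from chr3:142493978-142522344 for Gbp5 to chr3:142620602-142638008 for Gbp2 (GRCm38). The chromosome 5 members lie on the minus strand, from chr5:105014150-105139540 for Gbp8 to chr5:105270702-105293698 for Gbp6. The span of Gbp8 as annotated covers that of Gbp9 and nearly all of that of Gbp4. Opposite changes with LCL161 were therefore seen within the chromosome 3 cluster, between Gbp5 and Gbp2b, while the called changes on chromosome 5, in Gbp8 and Gbp11, were both decreases.

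Among 15 tested upstream genes of interferon signalling, 10 were higher and 0 lower with LTα1β2 over vehicle, with a median log2 fold change of 1.48, beside 12.8% and 10.6% of all tested genes. On addition of LCL161 4 were higher and 0 lower, with a median of 0.18, beside 10.6% and 15.1% of all tested genes. Irf1, a transcription factor of the interferon response, rose by a log2 fold change of 4.50 with LTα1β2 (SE 0.12, edgeR adjusted p = 5.92e-07). Socs1, an inhibitor of the same pathway, rose by 6.74 (SE 0.38, edgeR adjusted p = 2.46e-05), and Stat2 by 2.28 (SE 0.11, edgeR adjusted p = 1.32e-05). The 4 genes higher on addition of LCL161 were the receptor subunits Ifnar1 (log2 0.72) and Ifngr2 (0.41), the kinase Tyk2 (0.49) and the transcription factor Irf9 (0.34). The ligand genes listed, Ifng and Ifnb1, had few reads at 24 h, and other interferon genes were not examined. Ifng had 1 and 4 reads with LCL161 plus LTα1β2, 0 and 0 with LTα1β2 and 1 and 1 with vehicle, and was not tested. Ifnb1 had 10 and 13 reads with LCL161 plus LTα1β2, 3 and 5 with LTα1β2, and 1 and 2 with vehicle. It did not pass for LTα1β2 over vehicle (log2 1.53, SE 0.82, edgeR adjusted p = 0.231) or for the addition of LCL161 (log2 1.86, SE 0.62, edgeR adjusted p = 0.0632), and passed for both agents over vehicle (log2 3.39, SE 0.72, edgeR adjusted p = 0.00744).

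All 11 other interferon-inducible GTPases tested were higher with LTα1β2 over vehicle, beside 12.8% of all tested genes. Their median log2 fold change was 5.05. By p-value they were led by Gm12250, Igtp, Iigp1 and Irgm1, of the immunity-related GTPases that act on parasite vacuoles. Addition of LCL161 raised 2 of the 11, the antiviral genes Mx1 (log2 2.30, SE 0.47, edgeR adjusted p = 0.011) and Mx2 (log2 1.45, SE 0.32, edgeR adjusted p = 0.0152). It lowered 1, Gm12250 (log2 -0.37, SE 0.09, edgeR adjusted p = 0.0188). With 10.6% of all tested genes higher and 15.1% lower, these counts are near the background, and the median over the list was -0.15.

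A further list held 10 genes that encode inflammasome components and proteins that act with them. Of these genes 8 were higher and 0 lower with LTα1β2 over vehicle, beside 12.8% and 10.6% of all tested genes. Their median log2 fold change was 1.12. Those that did not pass were Il1b (log2 0.52, SE 0.17, edgeR adjusted p = 0.0702) and Il18 (log2 0.53, SE 0.16, edgeR adjusted p = 0.0532). On addition of LCL161 9 of 10 were higher and 0 lower, with a median of 0.77, beside 10.6% higher and 15.1% lower among all tested genes. Il1b, the cytokine precursor that caspase-1 cleaves, had 57.8 and 76.6 CPM with LCL161 plus LTα1β2, 16.3 and 16.1 CPM with LTα1β2, and 10.1 and 12.5 CPM with vehicle. Nlrp3, the sensor, had 87.1 and 88.8 CPM with LCL161 plus LTα1β2, 23.7 and 34.1 CPM with LTα1β2, and 14.6 and 13.8 CPM with vehicle. Both genes were separate between LCL161 plus LTα1β2 and LTα1β2, with log2 fold changes of 2.05 for Il1b (SE 0.17, edgeR adjusted p = 0.000228) and 1.60 for Nlrp3 (SE 0.17, edgeR adjusted p = 0.000525). Casp4, the protease of the lipopolysaccharide-sensing inflammasome, followed at 1.49 (SE 0.18, edgeR adjusted p = 0.000938). Pycard, the adaptor, was the 1 gene of the list that did not pass on addition of LCL161, with 81.4 ± 1.09 CPM against 81.5 ± 5.32 CPM with LTα1β2 (SD, n = 2 each).

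Few of the enzymes that attach and trim prenyl anchors passed a test, in counts near the background of all tested genes. Of 6 prenylation genes, 1 was lower with LTα1β2 over vehicle, the farnesyltransferase subunit Fnta (log2 -0.47, SE 0.10, edgeR adjusted p = 0.0115). There 12.8% of all tested genes were higher and 10.6% lower. On addition of LCL161 0 of 6 passed in edgeR, DESeq2 or limma voom, and 2 had an unadjusted p under 0.05 in edgeR. Of all tested genes edgeR called 10.6% higher and 15.1% lower on that addition. With LCL161 plus LTα1β2 over vehicle 1 was higher, the prenyl transferase subunit gene Pggt1b (log2 0.36, SE 0.11, edgeR adjusted p = 0.0313). The shares of all tested genes were 18.4% higher and 21.1% lower.

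Among the ATG factors that guide these GTPases to vacuoles, 0 of 10 passed with LTα1β2 over vehicle in edgeR, with a lowest edgeR adjusted p of 0.0603 for Gabarap. There 2 had an unadjusted p under 0.05, and DESeq2 and limma voom each called 1 higher. Of all tested genes edgeR called 12.8% higher and 10.6% lower with LTα1β2 over vehicle. On addition of LCL161 2 of 10 were higher, Gabarapl1 (log2 0.48, SE 0.10, edgeR adjusted p = 0.0123) and Atg5 (log2 0.49, SE 0.11, edgeR adjusted p = 0.0184), beside 10.6% of all tested genes. With LCL161 plus LTα1β2 over vehicle 5 were higher, among them Atg5 (log2 0.81, SE 0.11, edgeR adjusted p = 0.000973) and Gabarap (log2 0.54, SE 0.09, edgeR adjusted p = 0.00201). The 1 lower gene was Map1lc3a (log2 -1.01, SE 0.22, edgeR adjusted p = 0.00911). In that comparison 18.4% of all tested genes were higher and 21.1% lower.

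The genes whose levels ran closest to the members' mean pattern were found by the root mean square distance between centred log2 CPM over the 6 libraries, among 18803 other tested genes. The closest 5 were Tgtp2 at 0.156, Gm12185 at 0.17, Serpina3g at 0.232, Tgtp1 at 0.311 and Gm4951 at 0.369. Tgtp2, a GTPase gene of the immunity-related family, had 1399 and 1482 CPM with LCL161 plus LTα1β2, 1573 and 1614 CPM with LTα1β2, and 13.9 and 6.81 CPM with vehicle. By the same measure the members lay between 0.162 for Gbp2 and 1.06 for Gbp4 from their own mean, so 8 of the 9 were farther from it than Tgtp1.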

How the data were processed

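The submitters' processing notes name the build GRCm38 and the tools DESeq2 1.26.0 and STAR 2.7.3a, with no role. The deposited table holds expected counts, which are estimated reads per gene, unnormalised and keyed by symbol; 66.6% of the non-zero values were whole. The sources used here do not give the counting program, annotation, strand setting or treatment of reads with several matches. Groups and replicate numbers came from the sample titles.

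Expected counts were rounded to whole numbers. Genes were kept by filterByExpr (minimum count 10), which left 18812 of 55023, and scaled by TMM factors of 0.874 to 1.15. All 3 comparisons were fitted in edgeR 4.0.16 (R 4.3.3) as a group-means model over 6 libraries with the two-sided quasi-likelihood test and Benjamini-Hochberg adjustment over all tested genes, with calls at 0.05. Residual degrees of freedom were 3 and prior ones 4.59, at a biological coefficient of variation of 13.6%. SE is the log2 fold change divided by the root of F. Counting intervals are exact binomial at 95%. The procedure was tested on simulated data.

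Members and lists were chosen with earlier results of these data known. Named genes are the 9 members, up to 4 genes per list with the smallest p, those behind a count of 5 or fewer, and the 5 most alike non-members; Ifng, Ifnb1, Gbp2b, Gbp11, Gm43302 and genes named for the vehicle libraries or as markers were chosen after their values were seen. A gene that the rule selects is not reported here. Positions, exon lengths and shared windows came from GENCODE M21 and promoters from RefSeq. Of 12 other GTPases listed, 11 were in the table. Alternatives were relative log expression factors, total counts, no filter, a replicate block, only the groups compared, DESeq2 1.42.0, limma voom 3.58.1, leaving out each library and, added once the data had been seen, DESeq2 on the groups compared.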

Additional observations from a re-analysis of the deposited data

How the results depend on the processing

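All 9 members stayed higher than vehicle with LTα1β2, with and without LCL161, under each of the 14 alternatives. For LCL161 plus LTα1β2 over LTα1β2 the number of members higher was 0 under DESeq2 and 0 to 1 when single libraries were left out, where Gbp5 lost its call when either of the LTα1β2 libraries was left out, and the cause was not tested. The number lower was 2 under total counts, 2 with no filter beyond 1 read and 1 to 2 when single libraries were left out, with Gbp10 beside Gbp8. Gbp10 had log2 -0.42 (edgeR adjusted p = 0.0206) with no filter and -0.47 (edgeR adjusted p = 0.04) without LTα1β2 replicate 1. The median of the members was 7.24 to 8.15 for LTα1β2 over vehicle and 7.31 to 8.06 for LCL161 plus LTα1β2 over vehicle when libraries were left out, the ends coming from the vehicle libraries, and 7.36 for the second of these under total counts.

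Under the replicate block, Gbp5 had log2 1.60 (edgeR adjusted p = 0.0127) for the addition of LCL161, and no member's call changed. Replicate differences of the groups correlated across 18812 genes at 0.157, 0.0941 and 0.138, and the labels give no shared source for a number. With 2 libraries per group and 13 to 458 vehicle reads per member, the sizes of the changes over vehicle are known less well than their direction. When single libraries were left out, calls over all genes were 1126 to 2723 higher and 735 to 2210 lower for LTα1β2 over vehicle (2410 and 1991 with all libraries), 736 to 1487 higher and 1596 to 3316 lower for the addition of LCL161 (1989 and 2843), and 1900 to 3629 higher and 2985 to 3988 lower for LCL161 plus LTα1β2 over vehicle (3463 and 3968). With no filter beyond 1 read, 4367 genes were lower on addition of LCL161.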
